A study of Mus musculus with 9 samples.

Results

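A set of 8 genes of cholesterol synthesis and its control was followed across the 3 treatment groups of a mouse kidney culture experiment. They were chosen by name, as targets of the transcription factor SREBP2, but with earlier results of these data already known. They are Hmgcs1, Idi1, Fdft1, Sqle, Lss and Cyp51, which encode enzymes of the pathway, and Srebf2 and Insig1, which encode its activator and a brake on that activator. All 8 were found among the 57010 genes of the count table and all 8 passed the filter on low counts, which left 14747 genes tested. The samples were primary cultures of renal cells grown from digested whole kidneys of wild-type mice. Libraries came in 3 groups of 3, taken 6 h after addition of PBS, of 20 ng/mL TNFα, or of 20 ng/mL TNFα together with 1 µM ACHP, a small molecule that inhibits the NF-kB pathway. There was no group with ACHP alone, and the labels name no vehicle for ACHP and give no strain, age or number of animals. Nor do they tell whether replicates are separate cultures or animals, and the p-values below therefore reflect the spread among these libraries alone.

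Cells make cholesterol from acetyl-CoA through mevalonate, farnesyl diphosphate, squalene and lanosterol. When membranes of the endoplasmic reticulum are rich in sterol, INSIG proteins hold the complex of SREBP2 and its escort SCAP there. When sterol falls, the complex moves to the Golgi, where proteases release the part of SREBP2 that enters the nucleus and switches on the enzymes, genes of lipoprotein uptake, and Insig1 and Srebf2 themselves. The kidney epithelium uses the pathway for its own membranes, and tubule cells also take up lipoprotein from outside.

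Total counts per library ran from 14194295 to 20892176. Of 10 proximal tubule markers 6 stayed under 1 CPM in all libraries, with Slc22a6 at 0 and Slc34a1 at 1 count in all, while the listed collecting duct marker Aqp2 was at 0 and Aqp3 at 0.13 CPM on average with PBS. The keratins Krt8 and Krt18 and the adhesion molecule Epcam, which many epithelia express, were high, at 1403, 1050 and 422 CPM on average with PBS, while Scnn1a, a subunit of the epithelial sodium channel, had 44.5 CPM. CPM are counts scaled so that all libraries have the same total, with TMM factors to correct for differences in composition. Markers of neurons stood apart between libraries: 12 of them summed to 21.4, 99.5 and 84.8 CPM in the 3 PBS libraries, to 43.8, 73.1 and 62.8 in the TNF libraries, and to 20.8, 19.1 and 19.1 where ACHP was added. Replicate 1 of PBS and all 3 ACHP libraries were thus alike at the low end. For the 8 genes, and for the counts of the synthesis and fatty acid lists in the ACHP comparisons, values with the neuron sum as a term in the model are given below. Other genes are given without that term.

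In the PBS cultures the 8 genes spanned a wide range of levels per exon length (CPM per kilobase of all annotated exons of the gene, SD, n = 3). Hmgcs1, which makes HMG-CoA and so opens the pathway (ENSMUSG00000093930, chromosome 13, 120151915 to 120169796, GRCm39), was highest at 80.1 ± 2.88 CPM per kilobase. Cyp51, the demethylase that acts on lanosterol (ENSMUSG00000001467, chromosome 5, 4131145 to 4154746), followed at 51.1 ± 4.44. Fdft1, the squalene synthase that commits farnesyl diphosphate to sterols (ENSMUSG00000021273, chromosome 14, 63382599 to 63417027), stood at 34.4 ± 0.566. The next genes in this order lay close together. Sqle, the epoxidase that oxidises squalene (ENSMUSG00000022351, chromosome 15, 59186926 to 59203041), had 26.0 ± 0.852 CPM per kilobase. Insig1, the anchor that retains SCAP in the endoplasmic reticulum (ENSMUSG00000045294, chromosome 5, 28276361 to 28283660), had 24.8 ± 0.662. Srebf2, which encodes SREBP2 (ENSMUSG00000022463, chromosome 15, 82031382 to 82089580), had 23.4 ± 0.754. The PBS libraries of Sqle (25.3 to 27.0) and Insig1 (24.2 to 25.5) overlapped, so their order was not resolved, and Srebf2 (22.6 to 24.1) lay just under Insig1. Idi1, the isomerase that makes dimethylallyl diphosphate (ENSMUSG00000058258, chromosome 13, 8935537 to 8942487), was lower at 10.6 ± 0.504 CPM per kilobase. Lss, the cyclase that closes the sterol rings to give lanosterol (ENSMUSG00000033105, chromosome 10, 76367422 to 76392972), was lowest at 5.33 ± 0.233. The annotated exons of Lss cover 10787 bases and those of Idi1 3505. In CPM Lss was above Idi1 with PBS, at 57.4 against 37.1, so its last place depends on the length used. The other neighbours in the order did not overlap between PBS libraries. Reads that fall on exons of more than 1 gene were not counted at the settings in the file header, which lowers the level of genes that share exons. The shared part of the exon length was 18.8% for Fdft1 (with Ctsb), 12.1% for Hmgcs1 and 9.22% for Idi1 (each with a predicted gene that was not tested), 3.76% for Cyp51 (with Akap9), 3.53% for Lss and 0 for the rest.

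Promoter windows were available for 6 of the 8 genes in the RefSeq table for GRCm38.p6, and Sqle and Fdft1 had none there. Each window holds 300 bases on the gene's strand, from 250 before the start of the gene to 50 after it. The windows of 4 genes are shown because each of these genes passed the test in a comparison below. Capitals mark 3 motifs searched on both strands: the sterol regulatory element TCACNCCAC, to which SREBP binds (N is any base), the CCAAT box CCAAT, bound by NF-Y, and the GC box GGGCGG, bound by Sp1. Matches on the other strand read ATTGG and CCGCCC. NF-Y and Sp1 are known to act with SREBP at such promoters.
Hmgcs1: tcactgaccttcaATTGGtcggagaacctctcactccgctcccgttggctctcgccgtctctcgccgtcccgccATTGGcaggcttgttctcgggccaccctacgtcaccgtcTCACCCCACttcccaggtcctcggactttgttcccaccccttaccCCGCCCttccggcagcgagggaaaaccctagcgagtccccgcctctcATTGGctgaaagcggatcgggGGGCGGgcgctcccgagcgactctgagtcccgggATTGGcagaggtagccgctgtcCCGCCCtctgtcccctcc
Insig1: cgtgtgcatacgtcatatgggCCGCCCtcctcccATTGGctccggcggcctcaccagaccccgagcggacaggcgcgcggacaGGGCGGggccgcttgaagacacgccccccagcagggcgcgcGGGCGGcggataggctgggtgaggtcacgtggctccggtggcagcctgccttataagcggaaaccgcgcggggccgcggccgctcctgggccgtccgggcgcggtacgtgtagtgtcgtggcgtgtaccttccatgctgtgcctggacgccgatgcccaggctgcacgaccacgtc
Srebf2: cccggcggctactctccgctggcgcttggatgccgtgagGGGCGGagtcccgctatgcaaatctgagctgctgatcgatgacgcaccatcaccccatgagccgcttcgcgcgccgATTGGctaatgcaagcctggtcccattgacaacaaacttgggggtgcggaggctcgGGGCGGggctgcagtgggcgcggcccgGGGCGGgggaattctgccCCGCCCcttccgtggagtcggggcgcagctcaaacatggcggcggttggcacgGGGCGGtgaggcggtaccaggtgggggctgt
Lss: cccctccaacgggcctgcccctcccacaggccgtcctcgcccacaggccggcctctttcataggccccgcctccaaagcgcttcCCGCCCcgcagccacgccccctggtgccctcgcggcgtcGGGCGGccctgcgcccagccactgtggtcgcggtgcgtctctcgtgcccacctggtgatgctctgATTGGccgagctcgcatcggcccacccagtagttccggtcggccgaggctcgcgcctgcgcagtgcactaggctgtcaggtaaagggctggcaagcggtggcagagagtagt
The windows lie at chr13:119690101-119690400 for Hmgcs1, chr5:28071162-28071461 for Insig1, chr15:82147019-82147318 for Srebf2, chr10:76531355-76531654 for Lss (GRCm38.p6, all on the plus strand). The sterol regulatory element in these letters was found in 1 of the 6 windows, that of Hmgcs1 (bases 114 to 122 of the window), against 1.24% of 32851 RefSeq windows of the same length. A CCAAT box was found in 6 of 6, against 37.4% of all windows, and Hmgcs1 had the most of them. A GC box was also found in 6 of 6, against 35.7%. No matches overlapped, and a window without a motif says only that these letters are not in it.

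None of the 8 genes passed the test with TNF alone against PBS, and Lss, described below, came closest to it. A gene was called at an edgeR quasi-likelihood p under 0.05 after Benjamini-Hochberg adjustment over all genes tested, and by that rule 6.22% of all genes tested were called in TNF versus PBS (3.31% higher and 2.91% lower). Among the 5358 genes with a mean CPM at or above that of Idi1, the lowest of the 8, 5.71% were higher and 4.83% lower. Of the 8 genes 0 were called in either direction by edgeR or by DESeq2, and 1 of the 8, Lss, had an unadjusted p under 0.05, as did 2763 of all genes. Their log2 fold changes ran from -0.18 to 0.049 with a median of -0.01, beside a median of -0.0020 for all genes tested. In these cultures of mixed cells, fewer cells of a type and less RNA per cell cannot be told apart.

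Lss had the lowest value with TNF. It stood at 60.2, 55.3 and 56.8 CPM in the PBS libraries and at 51.1, 49.2 and 51.9 CPM in the TNF libraries, so the groups did not overlap, as was so for 11.5% of all genes in this direction and 12.3% in the other. On the log2 scale it differed by -0.18 (SE 0.056, edgeR adjusted p = 0.0706), short of the threshold. It passed when only the 6 libraries of the comparison were fitted (edgeR adjusted p = 0.0477) or without TNF with ACHP replicate 2 (edgeR adjusted p = 0.0448), and in none of the other alternatives. With the neuron term it kept -0.18 (edgeR adjusted p = 0.0586), and the median of the 8 genes in this comparison was again -0.01. For the other 7 genes the TNF and PBS libraries overlapped. Among the synthesis enzymes the 95% interval of the log2 fold change was -0.13 to 0.018 for Hmgcs1, -0.11 to 0.12 for Idi1, -0.16 to 0.024 for Fdft1, -0.11 to 0.065 for Sqle and -0.087 to 0.12 for Cyp51. For Srebf2 it was -0.052 to 0.12 and for Insig1 -0.047 to 0.14. These intervals hold 0 and end short of a 0.2 change on the log2 scale in either direction.

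When ACHP was present with TNF, all 8 genes had a higher mean than with TNF alone, and 3 of them rose: Fdft1, Lss and Hmgcs1. The background in this direction was 2.71% of all genes tested, and 5.1% of those at or above the mean CPM of Idi1. Of the 8 genes 0 were called lower, where the background was 4.46% of all genes and 4.44% at or above Idi1, and 7.17% of all genes were called in either direction. Each of the 8 had an unadjusted p under 0.05, as did 3013 of all genes, and DESeq2 called the same 3 genes and 0 lower. The median log2 fold change of the 8 was 0.13, beside 0.0034 for all genes, and the single values lay between 0.098 for Sqle and 0.28 for Lss. For 6 of 8 the libraries of both groups did not overlap, against 12.4% of all genes in this direction and 13.3% in the other.

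Fdft1, at the branch point to sterols, had 141.6, 136 and 127 CPM in the TNF libraries and 167, 156 and 168 with TNF and ACHP. Every ACHP library was above every TNF library. On the log2 scale Fdft1 rose by 0.28 (SE 0.044, edgeR adjusted p = 0.000415), a rise of 21.1% (95% interval 13.6 to 29.0). Of the genes that share exons with it, Ctsb, a lysosomal protease, had a log2 fold change of -0.026 (SE 0.035, edgeR adjusted p = 0.743).

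Lss, which forms lanosterol, had 51.1, 49.2 and 51.9 CPM with TNF alone and 59.2, 66.1 and 58.8 with both agents. The 3 ACHP libraries lay above the TNF libraries and within or above the range of PBS. Lss rose by 0.28 on the log2 scale (SE 0.055, edgeR adjusted p = 0.00344). The low TNF values enter this comparison as well as the one with PBS, since both use the same TNF libraries.

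Hmgcs1, the entry enzyme, had 366, 353 and 342.5 CPM with TNF alone and 392, 388 and 389 with both agents. The ACHP libraries were close to each other and above all TNF libraries. The change was small, with a log2 fold change of 0.14 (SE 0.036, edgeR adjusted p = 0.0204). The call was lost without TNF replicate 2 (edgeR adjusted p = 0.0816), TNF replicate 3 (0.11), ACHP replicate 2 (0.0553) or ACHP replicate 3 (0.0591), while the log2 fold change stayed between 0.12 and 0.16 without any 1 library.

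The other 5 genes did not pass the threshold. Idi1 had 38.2, 37.0 and 36.1 CPM with TNF alone and 41.8, 42.4 and 41.8 with both agents, with a log2 fold change of 0.18 (SE 0.055, edgeR adjusted p = 0.0526). Its groups did not overlap, and it was called in 4 alternatives, among them the fit of only these 6 libraries (edgeR adjusted p = 0.0416). Cyp51 had 233, 229 and 221 CPM with TNF alone and 256, 240.5 and 247 with both agents, a log2 fold change of 0.12 (edgeR adjusted p = 0.159). Insig1 had 80.6, 81.7 and 75.9 CPM with TNF alone and 82.3, 87.6 and 86.6 with both agents, a log2 fold change of 0.11 (edgeR adjusted p = 0.174). In both genes the groups were apart by a narrow gap. Sqle and Srebf2 were the 2 genes whose groups overlapped. Sqle had 149, 139.9 and 136 CPM with TNF alone and 155, 149 and 152 with both agents, a log2 fold change of 0.098 (edgeR adjusted p = 0.181). Srebf2 had 171, 165.5 and 179 CPM with TNF alone and 179, 190.2 and 193 with both agents, a log2 fold change of 0.12 (edgeR adjusted p = 0.0839). Single libraries decided some of these calls. Without PBS replicate 3, Cyp51 had an SE of 0.034 in place of 0.049 and an edgeR adjusted p of 0.0318. Without ACHP replicate 1 the edgeR adjusted p of Srebf2 was 0.0399, and Idi1 had 0.0483 without PBS replicate 2 and 0.0462 without PBS replicate 3. When only the 6 libraries of both groups were fitted, Cyp51 (edgeR adjusted p = 0.0317) and Srebf2 (0.0464) were called as well.

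**Figure D1:**
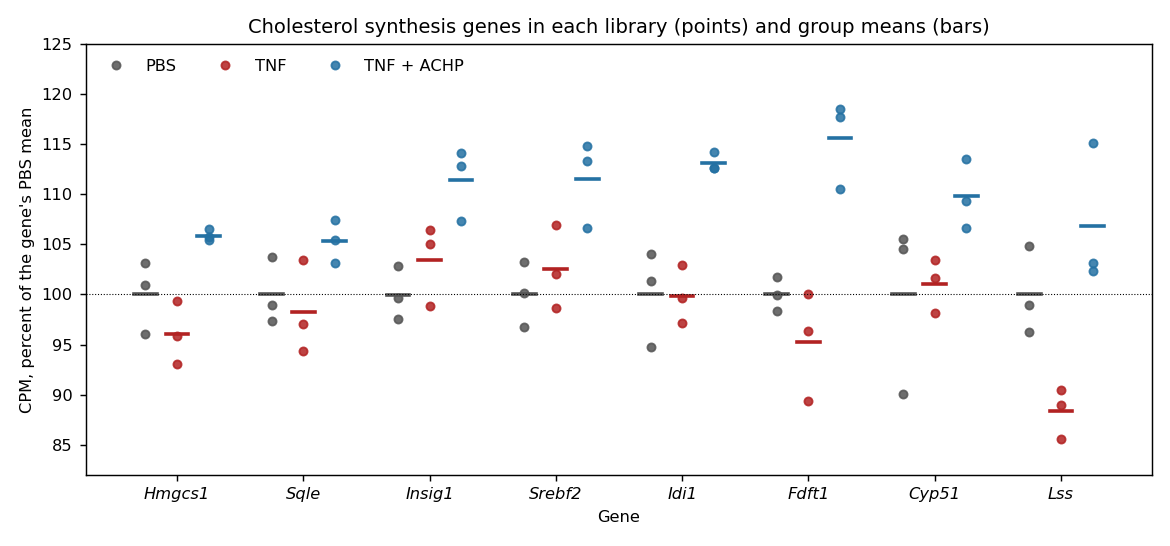
CPM of the 8 genes in each library (points) as percent of the gene's mean over the 3 PBS libraries, with group means as bars; PBS is grey, TNF red and TNF with ACHP blue. The ACHP libraries lie above the TNF libraries in 6 of 8 genes, and Lss is the gene whose TNF libraries all lie under its PBS libraries.

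Markers of other cell types moved with the ACHP group, where 4.46% of all genes were called lower against TNF and 2.71% higher. Of 12 neuron markers 8 were called lower and 0 higher with TNF and ACHP than with TNF, of 5 astrocyte markers tested 4 lower and 0 higher, and of 3 oligodendrocyte markers tested 3 lower and 0 higher. Of 9 macrophage markers tested 7 were called lower and 0 higher, and 10 listed ones summed to between 34.2 and 36.5 CPM with TNF and between 15.8 and 17.5 with TNF and ACHP. Other kidney markers moved too. Of 7 collecting duct markers tested, Krt8 and Krt18 were called higher and 0 lower, by 0.17 and 0.20 on the log2 scale, with a list median of 0.18 beside the 0.13 of the 8 genes. Krt8 went from 1327 to 1491 CPM and Krt18 from 974 to 1116 on average. Called lower were Col1a2 and Col3a1 of 6 fibroblast markers tested, Kdr of 5 endothelial markers and Calb1 of 3 loop and distal tubule markers, with 0 higher in these lists, and 0 of 4 proximal tubule markers were called by edgeR. Astrocyte markers summed to between 29.3 and 53.4 CPM with TNF and between 7.16 and 9.13 with TNF and ACHP, oligodendrocyte markers to between 110.5 and 122 and between 80.9 and 85.4. The 8 cholesterol genes summed to 1252, 1225 and 1179 CPM in PBS libraries, 1231, 1192 and 1170 in TNF libraries, and 1332, 1320 and 1335 where ACHP was added. Within the PBS group and within the TNF group, the library with the lowest neuron sum, replicate 1 in both, had the highest sum of the 8 genes. The other libraries went the opposite way: replicate 2 was above replicate 3 in both sums, in PBS as in TNF. The neuron sums of the ACHP libraries (19.1 to 20.8 CPM) all lay under those of the TNF libraries (43.8 to 73.1). A term for that sum therefore cannot separate neural transcripts from ACHP, and the SEs grew with it (Fdft1 had 0.044 without it). With the neuron sum as a term in the model, 1 of the 8 genes remained called higher with TNF and ACHP than with TNF. That gene was Fdft1, with a log2 fold change of 0.26 (SE 0.066, edgeR adjusted p = 0.0388). Lss had 0.20 (SE 0.079, edgeR adjusted p = 0.265) and Hmgcs1 0.087 (SE 0.052, edgeR adjusted p = 0.473). Among the genes not called against TNF, Idi1 went from 0.18 to 0.10, Cyp51 from 0.12 to 0.048 and Sqle from 0.098 to 0.028, while Srebf2 had 0.11 and Insig1 0.11. All 8 values stayed above 0 with a median of 0.11, and the number of genes called fell from 1058 to 261. The part of the neuron transcripts in these values thus could not be told apart from that of ACHP. That of the macrophage, astrocyte, oligodendrocyte, keratin, fibroblast, endothelial and distal tubule markers was not tested.

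**Figure D2:**
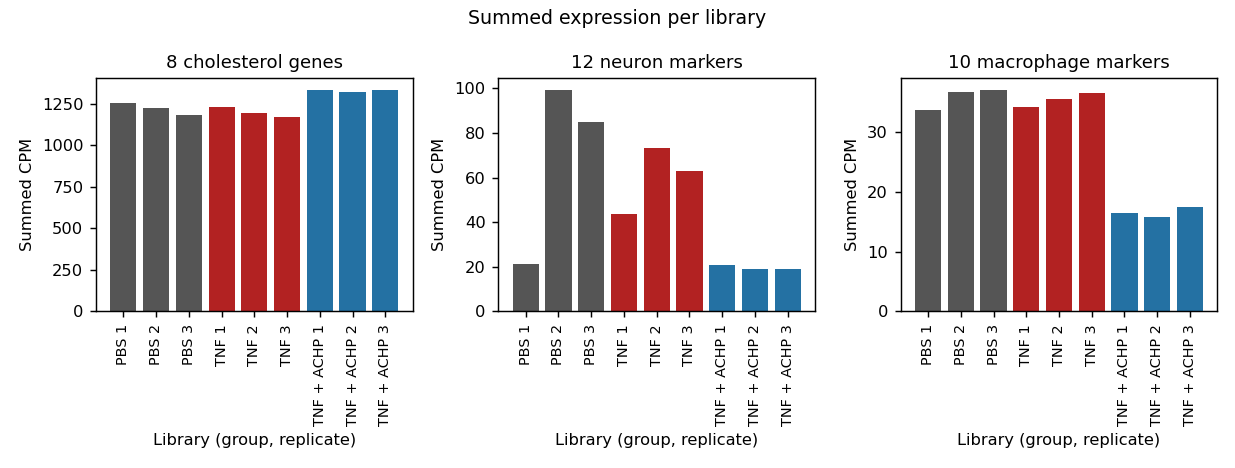
Summed CPM in each library of the 8 cholesterol genes, of 12 neuron markers and of 10 macrophage markers, each panel with its own axis from 0. The 8 genes reach at most 1252 CPM in PBS and TNF libraries and at least 1320 with TNF and ACHP, where the neuron sum is at most 20.8 and the macrophage sum at most 17.5.

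Means of all 8 genes were also above PBS when ACHP was added to TNF, and 3 of 8 rose: Fdft1, Srebf2 and Insig1. The background was 2.18% of all genes called higher and 3.87% lower (6.04% in either direction), or 4.24% and 3.14% of genes at or above the mean CPM of Idi1, and 0 of the 8 were lower. DESeq2 called Fdft1 and Srebf2 and 0 lower, and 6 of the 8 had an unadjusted p under 0.05. Their median log2 fold change was 0.15, beside 0.0050 over all genes. This comparison shares its ACHP libraries with the one against TNF, and the values of both are given side by side here without reading one as support of the other. For 6 of 8 genes the groups did not overlap, against 10.7% of all genes in this direction and 9.94% in the other, and the exceptions were Sqle and Lss.

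Fdft1 had 141.5, 144 and 139 CPM with PBS, all under the 156 to 168 CPM with TNF and ACHP, and it rose by 0.21 on the log2 scale (SE 0.044, edgeR adjusted p = 0.00623). Srebf2 had 168, 162 and 173 CPM with PBS against 179 to 193, a log2 fold change of 0.16 (SE 0.042, edgeR adjusted p = 0.0258). Insig1 had 76.5, 78.9 and 74.8 CPM with PBS against 82.3 to 87.6, a log2 fold change of 0.16 (SE 0.045, edgeR adjusted p = 0.0448). The feedback genes Srebf2 and Insig1 were thus called against PBS and not against TNF. The 2 contrasts differ by the TNF versus PBS comparison, in which neither gene was called. There Srebf2 had a log2 fold change of 0.036 (edgeR adjusted p = 0.73) and Insig1 of 0.049 (edgeR adjusted p = 0.642). Their TNF means of 172 and 79.4 CPM lay between those of PBS (168 and 76.8) and of TNF with ACHP (187 and 85.5). Both calls against PBS were close to the threshold: that of Insig1 was lost in 15 of 19 alternatives and that of Srebf2 in 9 of 19. Insig1 had an edgeR adjusted p of 0.10 without PBS replicate 1, 0.069 without PBS replicate 2 and 0.105 without PBS replicate 3. It had 0.0737, 0.0683 and 0.0595 without TNF replicates 1, 2 and 3, and 0.153 and 0.132 without ACHP replicates 2 and 3 (all edgeR). Srebf2 had an edgeR adjusted p of 0.0539 without PBS replicate 1, 0.144 without PBS replicate 2, 0.0514 without TNF replicate 1, and 0.0877 and 0.124 without ACHP replicates 2 and 3.

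The call of Fdft1 was lost in 2 of 19, with the neuron term (log2 fold change 0.20, edgeR adjusted p = 0.222) and with PBS replicate 1, the PBS library low in neuron markers, as the only PBS library (0.21, edgeR adjusted p = 0.091). Under each of these 2 alternatives 0 of the 8 genes were called, all 8 log2 fold changes stayed above 0, and the median was 0.086 and 0.09. With the neuron term Srebf2 had a log2 fold change of 0.14 and Insig1 of 0.16, near the values without it, while their SE rose to 0.062 and 0.070. The other genes that missed the threshold came down with that term: Idi1 from 0.18 to 0.11, Cyp51 from 0.14 to 0.066, Hmgcs1 from 0.083 to 0.032, Lss from 0.10 to 0.02 and Sqle from 0.075 to 0.0055. With PBS replicate 1 as the only PBS library the values of Cyp51, Hmgcs1, Lss and Sqle were 0.057, 0.039, 0.033 and 0.022. Hmgcs1 fell short of the threshold with 0.083 (edgeR adjusted p = 0.206), as did Idi1 with 0.18 (0.0547), Cyp51 with 0.14 (0.116), Lss with 0.10 (0.331) and Sqle with 0.075 (0.354). Cyp51 was called without PBS replicate 1 (edgeR adjusted p = 0.0392) and with no filter on low counts (0.0193), while without PBS replicate 3 its log2 fold change was 0.065 (0.375). Without ACHP replicate 2 that of Lss was 0.04 (edgeR adjusted p = 0.783). Lss was the gene whose log2 fold change differed most between both ACHP contrasts, at 0.28 against TNF and 0.10 against PBS. That difference restates its TNF versus PBS value of -0.18, which was not called. Over all 9 libraries, the log2 CPM of each gene was set against the mean of the standardised values of the other 7, as a description. Pearson's r was 0.92 for Hmgcs1 and for Fdft1, 0.91 for Idi1, 0.84 for Sqle, 0.75 for Insig1, 0.72 for Cyp51, 0.67 for Lss and 0.60 for Srebf2. These points share treatment groups and the neuron transcripts described above. In these 9 libraries r was highest for the enzymes Hmgcs1, Fdft1 and Idi1 and lowest for the activator Srebf2. Whether these values differ from each other was not tested.

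The rest of the synthesis pathway comprised 15 more enzymes, all tested. In TNF versus PBS edgeR called 0 of 15, with 5 lower at an unadjusted p under 0.05 and a median log2 fold change of -0.067, and DESeq2 called 1 lower. With TNF and ACHP against TNF 7 rose and 0 fell, beside 2.71% of all genes called higher and 4.46% lower. The median was 0.17 and all 15 were above 0, and DESeq2 called 6 higher, without Mvd. Fdps, which makes the farnesyl diphosphate that Fdft1 uses, had at most 160.2 CPM with TNF and at least 191 with TNF and ACHP, a log2 fold change of 0.32 (edgeR adjusted p = 4e-05). Tm7sf2, a sterol reductase, had the largest log2 fold change of the pathway at 0.58, from a level of 9.39 CPM with TNF, and 12.1% of its exon length is shared with Vps51. Mvd, the decarboxylase of mevalonate diphosphate, rose by 0.35, and Hsd17b7 and Msmo1, which act in the removal of sterol methyl groups, by 0.23 and 0.21. Against PBS 4 of 15 rose and 0 fell, among them Tm7sf2 by 0.36 and Fdps by 0.27. Of all genes 2.18% were called higher there and 3.87% lower, and DESeq2 called 3 of the 15 higher, without Tm7sf2. With the neuron term 2 of 15 were called higher against TNF and 1 against PBS, and the median against PBS went from 0.14 to 0.084. It was 0.089 with PBS replicate 1 as the only PBS library. Against PBS the count was also 1 without PBS replicate 2, and 2 without ACHP replicate 2 or without ACHP replicate 3.

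**Figure D3:**
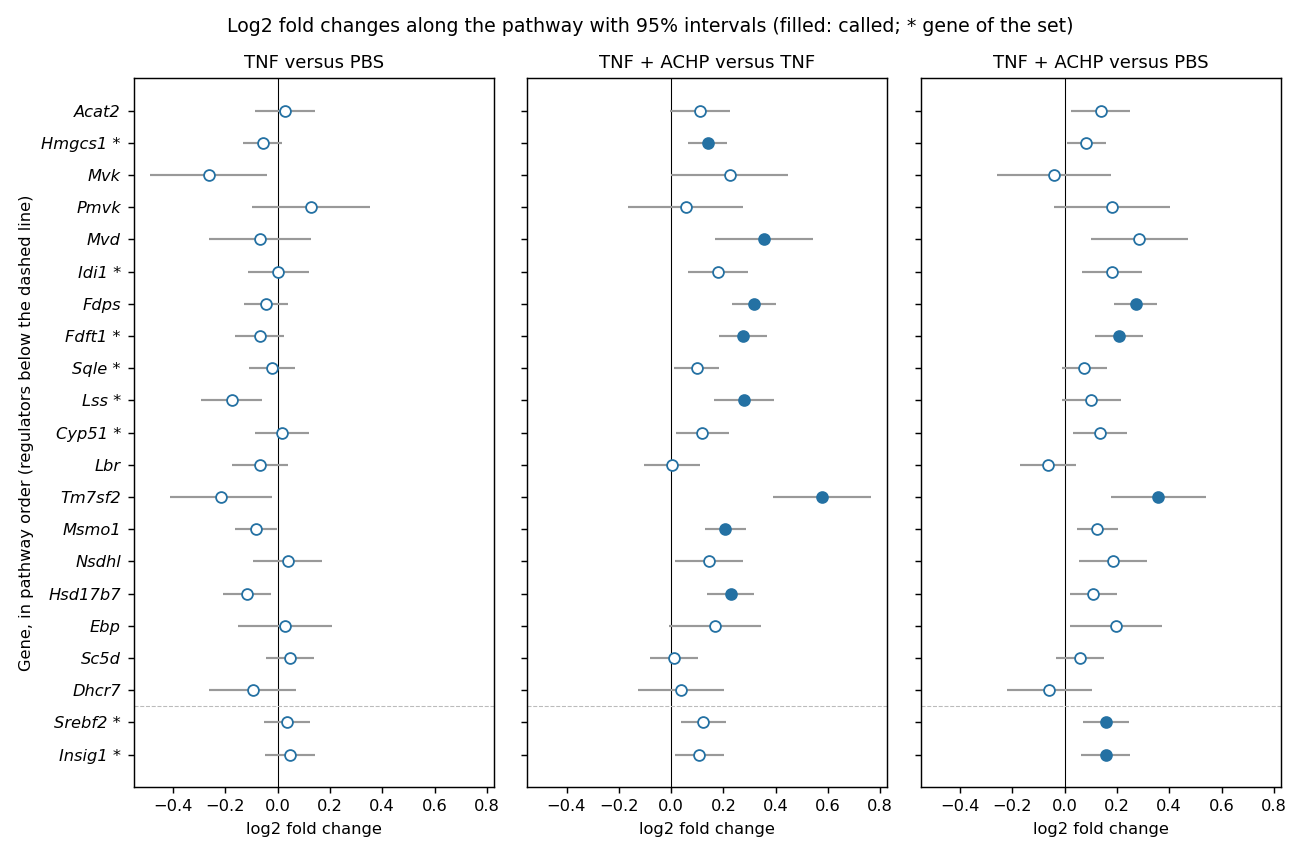
Log2 fold changes with 95% intervals for 19 synthesis enzymes in pathway order, with Srebf2 and Insig1 under the dashed line; filled points are called, and an asterisk marks the 8 genes. With TNF against PBS no point is filled; with TNF and ACHP against TNF the filled points lie between 0.14 for Hmgcs1 and 0.58 for Tm7sf2.

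Among genes of lipoprotein uptake, the receptors Lrp1 and Vldlr fell with TNF by 0.34 and 0.29 on the log2 scale. Lrp1 was also lower with TNF and ACHP than with PBS, at 21.1 against 30.9 CPM.

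Of the 5 genes of sterol sensing and SREBP processing 0 were called by edgeR or DESeq2 in any comparison, while at an unadjusted p under 0.05 there were 3 higher against TNF with ACHP added, 1 higher against PBS, and 1 lower with TNF alone. Their median log2 fold change was -0.082 with TNF against PBS, 0.12 with TNF and ACHP against TNF and 0.05 against PBS. For 4 of 5 the ACHP libraries lay above all TNF libraries, against 12.4% of all genes in this direction and 13.3% in the other. For 2 of 5 the TNF libraries lay under all PBS libraries, against 11.5% of all genes. With ACHP added against PBS 0 of 5 were apart. Fatty acid synthesis, which answers mainly to SREBP1, was represented by 13 genes, all tested. With TNF edgeR and DESeq2 called 0 of them (2 lower at an unadjusted p under 0.05). With TNF and ACHP 7 rose against TNF and 6 against PBS, with 0 lower and a median of 0.17 in both. Of all genes 2.71% and 2.18% were called higher in these comparisons, and DESeq2 called 7 of the 13 higher in each. Scd2, a desaturase, rose from 656.6 to 809 CPM on average (log2 fold change 0.30, edgeR adjusted p = 1.39e-05). Elovl6, an elongase, rose by 0.25, Aacs, which activates acetoacetate for lipid synthesis, by 0.24, Fasn, the fatty acid synthase, by 0.23 and the desaturases Fads2 and Fads1 by 0.17 and 0.16. Acly, which supplies acetyl-CoA, rose by 0.11. With the neuron term 1 of 13 was called higher against TNF and 0 against PBS, and the medians were 0.093 and 0.10. Without TNF replicate 2 or TNF replicate 3 the count against TNF was 4. Without PBS replicate 3 the median against PBS was 0.10. With PBS replicate 1 as the only PBS library 0 of 13 were called against PBS, with a median of 0.11.

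The branches of the pathway that lead away from sterols had 0 called genes among 10 in any comparison by edgeR or DESeq2, with 2 higher at an unadjusted p under 0.05 with ACHP added against PBS and 0 in the other comparisons, and their median log2 fold change was 0.05 in each ACHP contrast. Of 6 efflux and LXR genes tested, Nr1h2, the receptor LXR beta, rose by 0.27 against TNF, where DESeq2 did not call it. Its means were 33.4 CPM with PBS, 28.9 with TNF alone and 34.8 with TNF and ACHP, and it was called in neither comparison with PBS. Apoe, a lipoprotein component made by macrophages and astrocytes among others, fell by 2.05 against TNF, and its levels of 1.83, 11.7 and 9.63 CPM in the PBS libraries followed the order of the neuron and astrocyte sums, with replicate 1 lowest. Abca1, the exporter of cholesterol, fell by 0.63 against PBS. It averaged 9.62 CPM with PBS, 7.77 with TNF alone, where it was not called against PBS, and 6.16 with TNF and ACHP. Of 9 storage and trafficking genes, Nceh1, a cholesterol ester hydrolase, fell by 0.22 with TNF, and Npc2, which carries cholesterol out of lysosomes, rose by 0.14 with TNF and ACHP against PBS. Npc2 averaged 157.9 CPM with PBS, 170.7 with TNF alone, where it was not called against PBS, and 173.5 with TNF and ACHP.

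**Figure D4:**
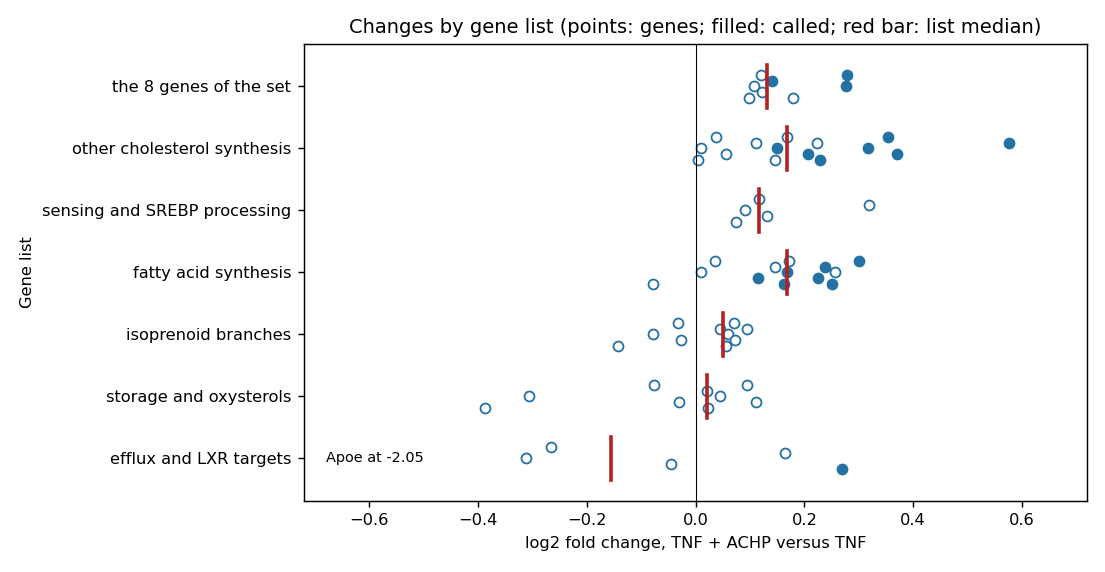
Log2 fold change with TNF and ACHP against TNF for each tested gene of 7 lists (points; filled where called), with the list median in red. The medians of the 8 genes (0.13), of the other synthesis enzymes (0.17) and of fatty acid synthesis (0.17) lie to the right of 0, and Apoe at -2.05 lies outside the axis.

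The genes whose pattern was most like that of the set were ranked by Pearson's r, over the 9 libraries, with the mean of the 8 standardised log2 CPM, among 10551 genes with a mean of at least 5 CPM. Among the first 8 were Osbpl7, of the oxysterol-binding protein family (0.97), Scd2 (0.97), the kinase Prkx (0.97), Thbd, which encodes thrombomodulin (0.97), Smarcb1, a subunit of a chromatin remodeller (0.95), the kinase Map3k14 (0.95) and Cttnbp2nl (0.94). This likeness is a description of 9 libraries that share treatment groups. The mean of the 8 standardised values was at least 0.97 in the ACHP libraries and at most 0.015 in the others. Genes picked for likeness to it thus tend to be higher with ACHP by that choice, and their calls are no separate result. Of these 7 genes, Scd2, Thbd, Map3k14 and Cttnbp2nl were called higher with TNF and ACHP than with TNF, while Osbpl7, Prkx and Smarcb1 were not called in any comparison. Thbd had a log2 fold change of 0.41 against TNF (edgeR adjusted p = 8.56e-06) and 0.30 against PBS (edgeR adjusted p = 0.000419).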

How the data were processed

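Total RNA of 9 libraries was sequenced. Per the submitters' processing notes, STAR, featureCounts and DESeq2 were used and the build was mm10, but per the file headers the deposited counts come from featureCounts 2.0.1, run with its defaults on a GRCm39 annotation (Ensembl 109). The table's intervals of all 8 genes do not overlap their GRCm38 positions while holding 5914 to 56520 counts each, so positions are on GRCm39. At these defaults reads are not split by strand, and reads on several genes or several places are not counted. Symbols were matched to 52029 identifiers, which hold 99.6% of the counts.

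The tests used edgeR 4.0.16 under R 4.3.3 (limma 3.58.1), with DESeq2 1.42.0 as an alternative. After filterByExpr and TMM scaling (factors 0.993 to 1.01), a quasi-likelihood model with 3 group means was fitted to all 9 libraries and tested in 3 comparisons; the coefficient of variation between replicates at the common dispersion was 4.01%. The standard error was derived from the F statistic. Replicates differed by more than counting noise (chi-square divided by degrees of freedom 1.87 to 6.53). The script was first tested on simulated counts. For likeness between genes, log2 CPM had a prior count of 2.

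The 8 genes, the gene lists and the tests were chosen with earlier results of these data known. All 8 genes are described; from other lists the called genes with the largest change are named, up to 6 per list and comparison, or all called genes of synthesis and uptake; and the 8 genes most like the set are named. Results of some genes that this rule selects are not reported here. Alternatives were DESeq2, no filter, a minimum of 1 CPM in 3 libraries, RLE factors, scaling by total counts, only the 6 libraries of a comparison, a replicate block, the log2 neuron sum as a covariate, an adjusted p under 0.01 and leaving out each library. PBS replicate 1 as the only PBS library was added after seeing the data; the lone library is assumed to vary like the other groups.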

Additional observations from a re-analysis of the deposited data

How the results depend on the processing

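Of 448 recomputed values of the 8 genes, 390 kept their direction and their side of the threshold, 33 lost a call, 12 gained one and 13 changed sign. The sign changes were all in TNF versus PBS and near 0: Sqle had 0.0008 without PBS replicate 1 and 0.0011 without TNF replicate 3 (range -0.065 to 0.0011 without 1 library). Idi1 had -0.0009 with DESeq2, -0.0002 with RLE factors, -0.0114 with total counts alone, -0.0004 with the replicate block, -0.0368 without PBS replicate 2, -0.025 without TNF replicate 1, -0.0017 without ACHP replicate 1 (range -0.0368 to 0.0259 without 1 library) and -0.0555 with PBS replicate 1 as the only PBS library. Cyp51 had -0.0534 without PBS replicate 3, -0.0044 without TNF replicate 1 (range -0.0534 to 0.0533 without 1 library) and -0.0619 with PBS replicate 1 alone. The cause of these changes was not tested.

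The number of the 8 genes called higher against TNF was 6 with only the 6 libraries, 1 with the neuron term and 2 to 5 without 1 library. Against PBS it was 1 with only the 6 libraries, 0 with the neuron term, 1 at an adjusted p under 0.01, 0 with PBS replicate 1 alone, and 1 to 3 without 1 library, with 1 call left without PBS replicate 2, TNF replicate 1, ACHP replicate 2 or ACHP replicate 3. In TNF versus PBS 1 gene was called lower with only the 6 libraries and 0 to 1 without 1 library. At an adjusted p under 0.01, 442, 468 and 427 of all genes were called for TNF against PBS, ACHP added against TNF, and ACHP added against PBS. In the last 2 the neuron term gave 261 and 126. Only the 6 libraries gave 493 in the last. With PBS replicate 1 alone, 418 genes were called in TNF versus PBS and 237 with ACHP added against PBS. Without 1 library the counts were 468 to 957, 541 to 1327 and 494 to 988 in the same order. With RLE factors or total counts alone the median log2 fold change of all genes lay between -0.0151 and 0.0067 in the 3 comparisons. In the main fit it lay between -0.0020 and 0.0050.

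The replicate numbers were not taken to pair the libraries: same-numbered deviations from the group means had r between -0.186 and 0.164, and under 0.1 in 7 of 9 pairs. The replicate block called 945, 1175 and 988 genes and changed no call of the 8 genes. At this depth and number of replicates the 8 genes had SEs of 0.036 to 0.056 on the log2 scale, so changes of a few percent were not detectable. Larger ones could also miss the threshold, as did Idi1 at 13.2% with ACHP added against TNF and Lss at -11.5% with TNF against PBS.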
